A study of Schizosaccharomyces pombe with 30 samples.

Results

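H3K9me2, the dimethyl mark on lysine 9 of histone H3, was compared between Δprw1 and Δfkh2 cells of the fission yeast Schizosaccharomyces pombe by ChIP-seq, 3 libraries against 3. The comparison took all 1500 filtered windows of 300 bp and these 6 of the 30 samples in the series, chosen by genotype label and not by any measured value. Δfkh2 cells carried fkh2::natMX and Δprw1 cells prw1::kanMX. Both had the MAT ΔREIII background. In it the s1 and s2 sites, Atf1/Pcr1 binding sites near the REIII silencer of the mating type locus, are deleted. Both carried the reporter genes SF-GFP at cenH, mKO2 near mat3m and 3xE2C at a separate locus. The 2 wild-type libraries set beside them had the same MAT ΔREIII background and reporters, so wild-type here means wild-type for fkh2 and prw1. Each genotype was represented by 1 strain, and its libraries were replicates A, B and C (B and C in wild-type). Cells had been grown in YES medium at 32 °C for 8 h before formaldehyde fixation. The values are ChIP counts without input correction, and the inputs were not used here.

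Heterochromatin in fission yeast is marked by H3K9 methylation, which the methyltransferase Clr4 deposits first at nucleation sites. The dg and dh elements of the pericentromeric outer repeats, cenH at the mating type locus and related sequence in the subtelomeric tlh helicase genes are such sites, where small RNAs of the RNAi pathway recruit the enzyme. From there the mark spreads into flanking chromatin, a step that needs histone deacetylases. Clr6 is a class I deacetylase that acts in several complexes, and Prw1, a WD40 repeat protein, is a subunit of them. Fkh2 is a forkhead transcription factor best known for the periodic expression of cell cycle genes. The authors of these data report that Fkh2 is also a member of Clr6 complexes. They propose that it strengthens the recruitment of Clr6 to heterochromatin away from nucleation sites. The comparison asks whether loss of the Clr6 complex subunit and loss of the forkhead factor leave different H3K9me2 landscapes.

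Each window was put in a zone by its position. Outer repeats are the blocks of sequence shared between centromeres, with 336 windows. Other pericentromere denotes the central part between the outer repeats and the 10 kb outside them, with 212 windows. The tlh genes tlh1 and tlh2 held 39 windows and the remaining 100 kb of the ends of chromosomes I and II, called other subtelomere, held 391. MAT held 90 windows, the heterochromatin islands at the meiotic genes mei4, ssm4 and mcp7 held 25, the ends of chromosome III held 131, and 276 lay elsewhere. Counts were divided by a size factor estimated on 5 kb bins across the genome and are called normalized counts. On this scale a 300 bp stretch of the bins without any filtered window held 105 counts in each of the 6 mutant libraries, which is used as the background level. The 5 kb bins of the 6 libraries held 6171299 to 10860203 fragments. The windows took 30.8%, 50.5% and 36.9% of them in Δfkh2 A, B and C and 33.1%, 64.5% and 37.4% in Δprw1 A, B and C. Replicate B of each mutant therefore stood apart with more signal in heterochromatin, and results are given with and without both B libraries where that matters.

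Δprw1 had less H3K9me2 than Δfkh2 in a large part of the windows and more in none. With edgeR's quasi-likelihood test on all 13 ChIP libraries of the series, and a call at a Benjamini-Hochberg adjusted p below 0.005 with a log2 fold change beyond 1 in size, 304 of the 1500 windows (20.3%) were lower in Δprw1 and 0 (0.0%) were higher. At an unadjusted p below 0.05, 543 windows were lower and 3 higher, and DESeq2 called 338 lower and 0 higher. All Δprw1 libraries lay below all Δfkh2 libraries in 531 windows (35.4%) and above them in 1 (0.0667%). With both B libraries left out, 243 windows were called lower, of which 229 were among the 304. The count fell to 133 without Δprw1 A and to 122 without Δprw1 C, and it was 155 with only the 6 mutant libraries in the fit. The absence of higher windows depended on the scaling. With TMM factors computed on the windows themselves, which moved the median log2 fold change of all windows from -0.39 to -0.02, 251 windows were lower and 189 higher, 184 of the latter in the outer repeats.

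Most called windows lay outside the outer repeats and tlh genes. In the other subtelomere 193 of 391 windows were called lower and in the other pericentromere 86 of 212, so that these zones held 279 of the 304 called windows, with a median log2 fold change of -1.33 and -1.16. In the outer repeats 3 of 336 windows were called, with a median of 0.91 over the zone, and in the tlh genes 0 of 39, with a median of 0.77 and 0 windows at an unadjusted p below 0.05. MAT had 12 of 90, the islands 1 of 25, the ends of chromosome III 1 of 131 and the rest of the genome 8 of 276. These shares can be read against the 20.3% over all windows.

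**Figure D1:**
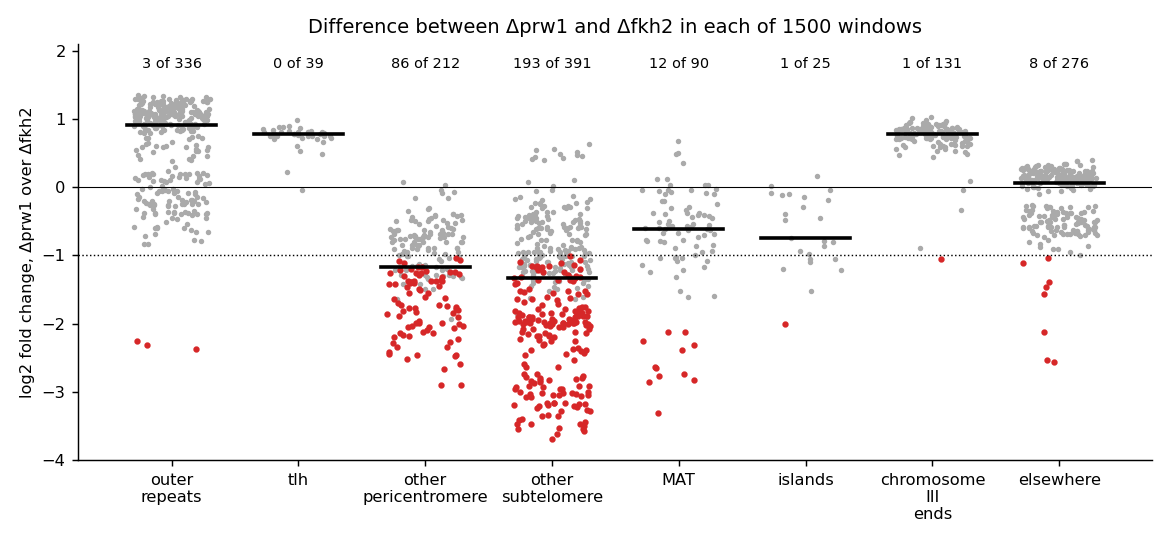
Log2 fold change of H3K9me2 in Δprw1 over Δfkh2 (y axis) for each of the 1500 windows, grouped by zone (x axis). Red points are the windows called lower, grey points the others, black bars zone medians, and the dotted line a log2 fold change of -1. Red points fill the other pericentromere (86 of 212) and the other subtelomere (193 of 391), while the outer repeats and tlh genes lie mostly above 0.

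The sequences below are, for 6 zones, the called window with the lowest log2 fold change, given to show which DNA carried less of the mark in Δprw1 than in Δfkh2. They were read on the plus strand from the RefSeq assembly ASM294v3, whose chromosome lengths equal those in the count tables. Capitals mark matches to the forkhead core GTAAACA or its complement TGTTTAC.
Other subtelomere, chrI:14401-14700, over the pseudogene SPAC212.07C: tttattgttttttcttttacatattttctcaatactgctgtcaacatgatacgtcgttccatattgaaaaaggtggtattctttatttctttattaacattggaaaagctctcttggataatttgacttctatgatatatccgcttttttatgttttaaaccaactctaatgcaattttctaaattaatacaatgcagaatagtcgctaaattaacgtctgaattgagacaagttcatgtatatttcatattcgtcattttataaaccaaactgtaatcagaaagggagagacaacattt
Other pericentromere, chrII:1601701-1602000, with no annotated gene: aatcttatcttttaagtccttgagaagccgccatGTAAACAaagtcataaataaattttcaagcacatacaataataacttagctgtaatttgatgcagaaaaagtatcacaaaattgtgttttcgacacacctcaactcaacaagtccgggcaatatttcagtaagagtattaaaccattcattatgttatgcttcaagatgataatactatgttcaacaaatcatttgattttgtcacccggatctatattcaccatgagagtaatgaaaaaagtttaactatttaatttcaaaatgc
Outer repeats, chrII:1602301-1602600, over a tRNA-Asp gene at the outer border of the left repeat of centromere II: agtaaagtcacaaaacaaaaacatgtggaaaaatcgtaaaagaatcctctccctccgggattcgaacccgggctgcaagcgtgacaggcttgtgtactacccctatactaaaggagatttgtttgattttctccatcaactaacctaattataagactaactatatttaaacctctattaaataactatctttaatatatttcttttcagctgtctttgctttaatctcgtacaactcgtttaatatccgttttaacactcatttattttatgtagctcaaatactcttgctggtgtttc
MAT, chrII:2134201-2134500, with no annotated gene: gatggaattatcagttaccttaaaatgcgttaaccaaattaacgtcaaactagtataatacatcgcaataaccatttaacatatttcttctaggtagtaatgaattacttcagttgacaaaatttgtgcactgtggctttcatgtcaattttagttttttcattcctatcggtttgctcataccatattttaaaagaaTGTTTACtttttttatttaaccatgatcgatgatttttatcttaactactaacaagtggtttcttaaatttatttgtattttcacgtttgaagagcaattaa
Islands, chrII:1474201-1474500, within the coding sequence of mei4: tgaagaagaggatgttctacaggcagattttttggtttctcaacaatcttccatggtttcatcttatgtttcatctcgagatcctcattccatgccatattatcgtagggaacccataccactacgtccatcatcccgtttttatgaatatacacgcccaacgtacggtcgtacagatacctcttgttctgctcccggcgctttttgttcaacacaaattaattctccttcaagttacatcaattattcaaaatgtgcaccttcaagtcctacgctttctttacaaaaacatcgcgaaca
Elsewhere, chrI:3728101-3728400, past the stop codon of vps29: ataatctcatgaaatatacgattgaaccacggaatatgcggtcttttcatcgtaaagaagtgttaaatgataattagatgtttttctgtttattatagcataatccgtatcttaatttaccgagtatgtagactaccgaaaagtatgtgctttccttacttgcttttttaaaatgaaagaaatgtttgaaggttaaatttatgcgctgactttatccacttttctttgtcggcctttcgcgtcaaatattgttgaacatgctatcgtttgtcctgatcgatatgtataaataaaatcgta
The GTAAACA core, searched on both strands, was present in 2 of these 6 windows. The lowest called window of the ends of chromosome III, chrIII:24901-25200, is not printed and did not hold the core. Over all windows on chromosomes the core was present in 95 of 1435 (6.62%), and in 21 of the called ones (7.05%). Of all 41905 steps of 300 bases along the genome, 9.16% held it, without a test of the difference. A match is a description of the sequence only.

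The outer repeats carried H3K9me2 far above the background in both mutants and in wild-type. The median window of this zone held 2559, 7871 and 3445 normalized counts in Δfkh2 A, B and C, and 3354, 13689 and 4842 in Δprw1 A, B and C. The wild-type libraries held 21022 and 11359, so the ranges of the mutants overlapped each other and Δprw1 B lay within the wild-type range. Summed over the zone, the log2 level was 20.96 ± 1.11 in Δprw1 against 20.31 ± 0.83 in Δfkh2 (SD, n = 3 each), a difference of 0.65 (2-sided exact permutation p = 0.5). That difference was 0.03 without Δprw1 B and 0.49 without both B libraries. By centromere, the median log2 fold change was 0.25 at centromere I, 0.55 at centromere II and 1.07 at centromere III. It was 0.20 and 0.43 in the left and right repeats of centromere I, 0.20 and 0.61 in those of centromere II, and 1.05 and 1.08 in those of centromere III. The 3 higher windows with an unadjusted p below 0.05 all lay in centromere III repeats. In the one with the highest log2 fold change, chrIII:1117201-1117500, counts were 2903, 7994 and 4222 in Δfkh2 and 5461, 25969 and 7337 in Δprw1 (1.36, standard error 0.68, edgeR adjusted p = 0.126). Repeat copies share reads, which the aligner places once each, so windows of this zone are not independent of each other.

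Between and outside the repeats the mutants separated. In the other pericentromere the median window held 226, 575 and 272 normalized counts in Δfkh2 A, B and C, but 140, 171 and 138 in Δprw1. Every Δprw1 library was thus lower than every Δfkh2 library, while wild-type held 1296 and 823. Fewer than 2 times the background counts were found in 94, 1 and 72 of the 212 windows of the Δfkh2 libraries, compared with 158, 135 and 160 for Δprw1. The level summed over the zone differed by -0.84 (16.56 ± 0.67 in Δprw1, 17.40 ± 0.84 in Δfkh2, SD, n = 3 each, exact permutation p = 0.3), since Δprw1 B overlapped the Δfkh2 libraries. The value was -0.36 without Δfkh2 B and -0.72 without both B libraries. Of the windows, 210 of 212 had a negative log2 fold change, and the 86 calls fell to 50 without both B libraries, to 24 without Δprw1 A, to 17 without Δprw1 C, to 36 without Δfkh2 B and to 20 with only the mutant libraries in the fit.

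**Figure D2:**
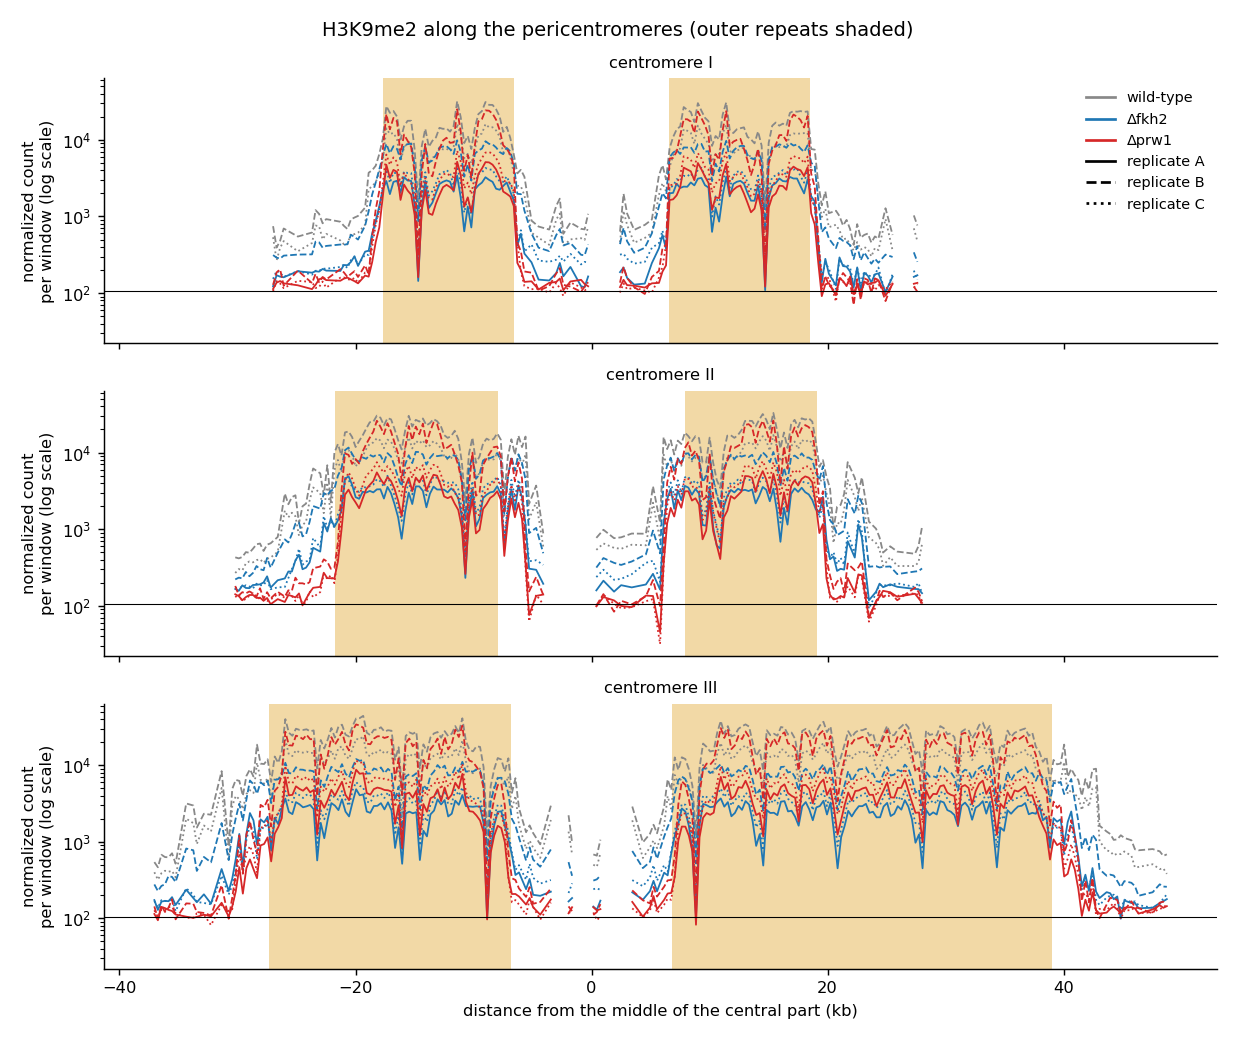
Normalized H3K9me2 counts per window (y axis, log scale) along the 3 pericentromeres, against the distance from the middle of the central part in kb (x axis). Each line is a library of wild-type (grey), Δfkh2 (blue) or Δprw1 (red), with solid, dashed and dotted lines for replicates A, B and C, outer repeats shaded and the background as a black line. Red lines overlap blue ones within the shading and lie at or near the background on most of the unshaded DNA, where blue lines lie above it.

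The central parts had the larger share of calls. There 44 of 69 windows were called lower, 15 of 22 at centromere I, 13 of 26 at centromere II and 16 of 21 at centromere III. Windows on opposite sides of a central part can share reads, as described below for tRNA genes, so these are not all separate measurements. The flanks had 42 of 143, and they were uneven: 15 of 26 and 11 of 21 at the left and right of centromere II, 9 of 25 and 2 of 27 at centromere III, and 1 of 21 and 4 of 23 at centromere I. Within 5 kb of an outer repeat 76 of 146 windows were called, with a median log2 fold change of -1.36, and from 5 to 10 kb away 10 of 66, with a median of -0.71. In the farther windows the Δfkh2 medians were 170, 307 and 182 counts and the Δprw1 medians 131, 138 and 125.

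Windows over tRNA genes stood out among these, a grouping made after the values were seen. tRNA genes cluster at fission yeast centromeres, where some are known to act as heterochromatin barriers. Of the 54 pericentromeric windows that overlap a tRNA gene, 46 were called lower, with a median log2 fold change of -1.95 and a highest value of -1.18. Of the 494 pericentromeric windows without one, 43 were called, and within the other pericentromere alone the counts were 43 of 51 with and 43 of 161 without a tRNA gene. The contrast was smaller by overlap of libraries. All Δprw1 libraries lay below all Δfkh2 libraries in 45 of these 51 and 111 of these 161 windows. Median log2 fold changes against wild-type were -4.11 in Δprw1 and -2.14 in Δfkh2 with a tRNA gene. Without one they were -2.26 and -1.25. Some tRNA windows on opposite sides of a centromere had almost the same values. chrII:1618201-1618500 held 1150, 4458 and 1131 counts in Δfkh2 and 355, 545 and 315 in Δprw1. chrII:1629901-1630200 held 1188, 4399 and 1193 against 351, 570 and 320. Such windows can share reads, so the counts of windows over tRNA genes are not all separate measurements. The 3 called windows of the outer repeats all overlap a tRNA gene at a border of the repeat. In the strongest of them, the tRNA-Asp window printed above, counts were 1302, 4982 and 1552 in Δfkh2 and 377, 671 and 460 in Δprw1. No library of one mutant reached those of the other, and the log2 fold change was -2.38 (standard error 0.61, edgeR adjusted p = 0.000615). This call was lost without Δprw1 A (adjusted p = 0.0117), without Δprw1 C (0.0101), without Δfkh2 B (0.0192) and with only the mutant libraries in the fit (0.019).

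The left border of centromere II held the pericentromeric window with the lowest log2 fold change, chrII:1601701-1602000. Its normalized counts were 1388, 3168 and 1294 in Δfkh2 and 229, 304 and 250 in Δprw1, with 2246 and 1423 in wild-type. Δfkh2 was thus at the wild-type level and Δprw1 far below both, with a log2 fold change of -2.90 (standard error 0.54, edgeR adjusted p = 2.78e-06). It was -2.49 without both B libraries. Only 6 of the 304 called windows had a Δfkh2 mean at or above the wild-type mean. Besides this one they were 4 of the windows at vps29 and moa1 described below and 1 at the left end of chromosome III.

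The tlh genes, which encode RecQ-type helicases and lie in the subtelomeres, resembled the outer repeats. The median tlh1 window held 3123, 6716 and 3251 normalized counts in Δfkh2 and 3524, 13943 and 4768 in Δprw1, and the median tlh2 window 3060, 6644 and 3257 against 3527, 13933 and 4837. The genes are near-identical copies that share reads, so these are not separate measurements. Over both genes the summed log2 level was 17.86 ± 1.03 in Δprw1 and 17.26 ± 0.62 in Δfkh2 (SD, n = 3 each), a difference of 0.59 with overlapping libraries (exact permutation p = 0.5). It was 0.01 without Δprw1 B and 0.37 without both B libraries. Log2 fold changes of single windows ran from -0.04 to 0.98.

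Away from tlh1 and tlh2 the subtelomeres held the lowest median log2 fold change of the zones. The median window of the other subtelomere held 291, 742 and 384 normalized counts in Δfkh2 and 150, 207 and 134 in Δprw1. These ranges did not overlap, and wild-type held 3252 and 1983. The summed level differed by -1.03 (17.53 ± 0.69 against 18.55 ± 0.70, SD, n = 3 each, exact permutation p = 0.3) and by -1.01 without both B libraries. The 193 calls in this zone became 171 without both B libraries, 93 without Δprw1 A, 88 without Δprw1 C and 117 with only the mutant libraries in the fit. The summed level was -0.63 without Δfkh2 B. At the left and right ends of chromosome I, 61 of 115 and 49 of 87 windows were called. At the left and right ends of chromosome II the counts were 28 of 69 and 55 of 120. Some windows on these ends had almost the same values. chrII:3901-4200 held 448, 975 and 690 counts in Δfkh2 and 132, 254 and 130 in Δprw1. chrII:4508701-4509000 held 444, 981 and 679 against 137, 231 and 114. Chromosome ends can share sequence and reads, so calls in this zone are not all separate measurements. How many windows this concerns was not tested. Windows under 2 times the background numbered 122, 4 and 54 of 391 in Δfkh2 and 302, 198 and 306 in Δprw1.

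The difference varied with the distance from the tlh genes. On the ends that carry them, only 2 of 50 windows within 5 kb of tlh1 or tlh2 were called. There Δfkh2 held 2397, 5749 and 2331 counts in the median window and Δprw1 1418, 4590 and 2092. From 5 to 10 kb away 32 of 37 windows were called, with a median log2 fold change of -3.03. The median window held 1090, 2910 and 1113 counts in Δfkh2 and 206, 347 and 202 in Δprw1, against 7584 and 4393 in wild-type. Beyond 10 kb 82 of 148 were called, with a median of -1.56, and Δfkh2 itself had dropped to 238, 544 and 331 counts while Δprw1 was at 143, 187 and 127. In steps of 10 kb from the left end of chromosome I, the calls were 0 of 34, 29 of 32, 30 of 31, 2 of 21, 0 of 14 and 0 of 2. On the right end of chromosome II, where tlh2 lies farther in, they were 1 of 32, 7 of 32, 32 of 33, 14 of 30 and 1 of 13. On the other ends, where the reference has no annotated tlh gene, the first 10 kb had 25 of 31 calls on chromosome I and 26 of 32 on chromosome II. Distances run from the end of the reference sequence, so a tlh gene beyond that end would not be seen.

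**Figure D3:**
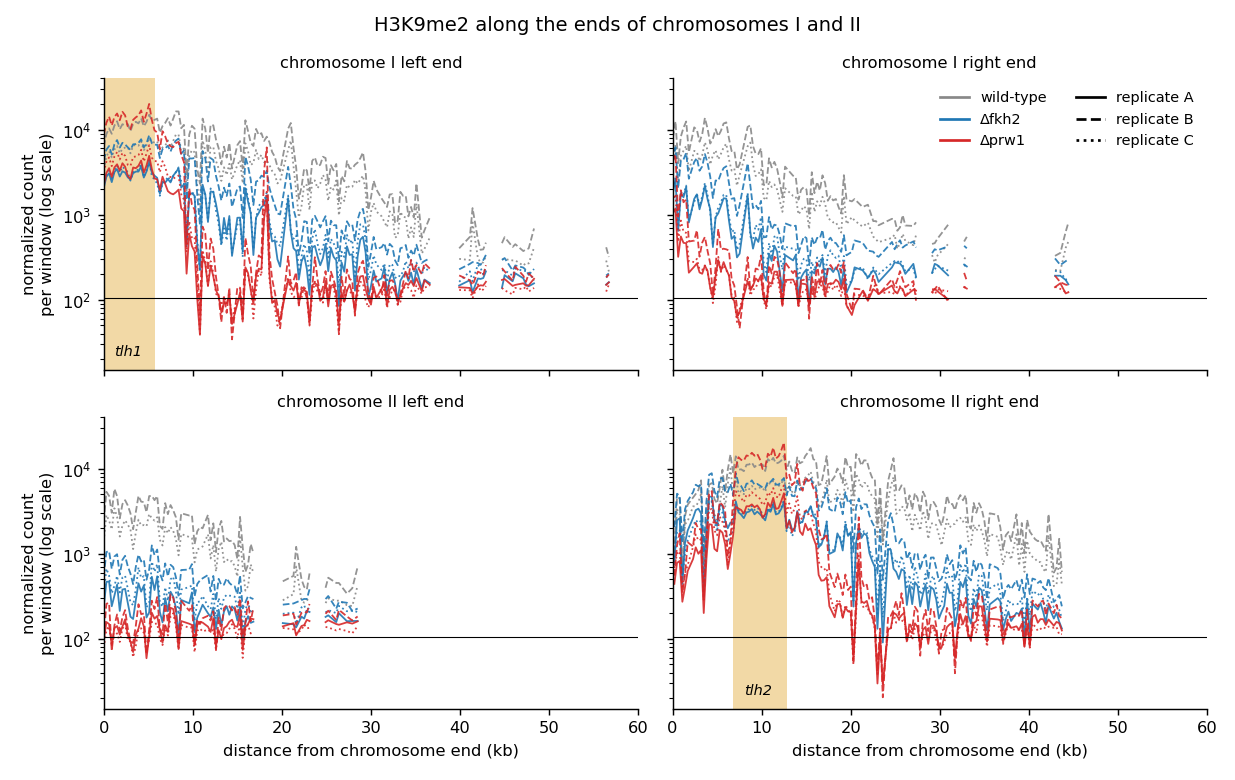
Normalized H3K9me2 counts per window (y axis, log scale) against the distance from the end of the reference sequence in kb (x axis) at the ends of chromosomes I and II. Each line is a library of wild-type (grey), Δfkh2 (blue) or Δprw1 (red), with solid, dashed and dotted lines for replicates A, B and C, tlh genes shaded and the background as a black line. Between 5 and 10 kb from the tlh genes the Δprw1 medians are 206, 347 and 202 counts and the Δfkh2 medians 1090, 2910 and 1113.

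The 10 annotated genes with the strongest called windows were all subtelomeric, on the left end of chromosome I and the right end of chromosome II. They were 4 pseudogenes, 5 long non-coding RNA genes and 1 coding gene, in order SPAC212.07C, SPAC212.08C, SPNCRNA.2008, SPNCRNA.2009, SPBCPT2R1.05C, prl101, SPNCRNA.2007, SPAC212.05C, SPBCPT2R1.06C and SPNCRNA.6642. All windows over each of them were called, from 2 to 5 per gene. SPAC212.07C, a pseudogene, held the lowest log2 fold change of the data set. Its window at chrI:14401-14700 had 327, 1234 and 355 normalized counts in Δfkh2 and 51.8, 34.2 and 60.1 in Δprw1, with 3492 and 2592 in wild-type. Each Δprw1 library was below the background of 105 there, so that genome-wide level is not a floor for this window. The log2 fold change was -3.69 (standard error 0.51, edgeR adjusted p = 2.35e-10), and -2.61 without both B libraries. SPAC212.08C encodes a GPI anchored protein, and its window at chrI:12601-12900 had 1341, 2854 and 1113 counts in Δfkh2 and 129, 186 and 118 in Δprw1. All Δprw1 libraries were within 2 times the background there, at a log2 fold change of -3.62. SPBCPT2R1.05C, a pseudogene at the right end of chromosome II, had 1109, 2995 and 1093 counts in Δfkh2 and 133, 186 and 128 in Δprw1 (-3.54). The non-coding RNA gene prl101 had 919, 2036 and 759 counts against 89.3, 140 and 105 (-3.48). In all, called windows overlapped 152 of the 542 genes with a window (28.0%). By class these were 59 of 322 long non-coding RNA genes, 51 of 56 tRNA genes and 34 of 139 protein-coding genes. Strands were not separated, so overlapping and antisense genes share these values.

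Within this stretch of chromosome I, 2 adjoining windows over SPAC212.06C, annotated as a DNA helicase-like protein, were not lower in Δprw1 than in Δfkh2. The window chrI:18301-18600 held 1685, 3286 and 1838 normalized counts in Δfkh2 and 1503, 6173 and 1860 in Δprw1, and the groups overlapped (log2 fold change 0.48). Wild-type held 8263 and 4344 there. The window chrI:18001-18300 held 1309, 2777 and 1449 counts in Δfkh2, compared with 903, 3313 and 1136 in Δprw1 (-0.05), and wild-type held 7363 and 4126. The windows on either side of the pair were both called lower. A BLAST search made after these values were seen found 245 bases of the window to be 99.6% identical to tlh1, so reads from the tlh genes can be placed there. Of the 12 windows of the other subtelomere that share at least 150 bases at 90% identity with tlh1 or tlh2, 9 were called lower, at identities up to 96.7%, against 184 of the 379 other windows (48.5%). The 3 that were not called had the highest identities, 97.3%, 99.6% and 97.7%. The part of shared reads in these values was not tested.

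**Figure D4:**
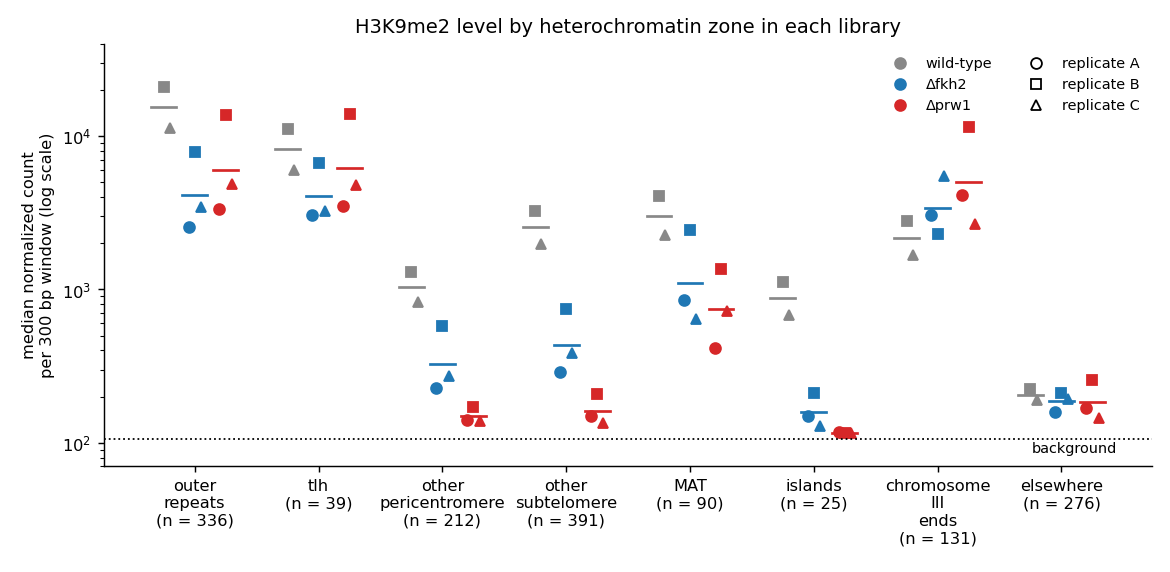
Median normalized H3K9me2 count per 300 bp window (y axis, log scale) in each zone (x axis, with the number of windows) for every library of wild-type (grey), Δfkh2 (blue) and Δprw1 (red). Symbols give the replicate, horizontal bars the geometric mean and the dotted line the background of 105 counts. Δprw1 lies below Δfkh2 without overlap in the other pericentromere, the other subtelomere and the islands, and overlaps it in the remaining zones.

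Relative levels within a library, which no scaling of the libraries can change, showed the same separation of zones. The log2 ratio of the summed counts of the other pericentromere to those of the outer repeats was -2.77, -2.87 and -3.08 in Δfkh2 and -4.10, -4.93 and -4.17 in Δprw1. In wild-type it was -3.23 and -3.07, so Δfkh2 A and B lay above the wild-type values, Δfkh2 C between them, and every Δprw1 library below them. The difference between the mutants was -1.49 (exact permutation p = 0.1, the smallest that 3 libraries against 3 can give) and -1.21 without both B libraries. It was -1.29 at centromere I, -1.10 at centromere II and -1.93 at centromere III, without overlap at any of them. The ratio of the other subtelomere to the tlh genes, at the ends that carry them, was 0.86, 1.00 and 0.82 in Δfkh2, compared with -0.42, -0.94 and -0.43 in Δprw1. Wild-type had 1.5 and 1.61. Here the difference was also -1.49 (exact permutation p = 0.1), and -1.26 without both B libraries. Both ratios kept their direction under each alternative tried. Neither can pass a threshold of 0.05 with this number of libraries. The ratios are not free of the background, since 158, 135 and 160 of the 212 other pericentromere windows in Δprw1 held under 2 times its level. Δprw1 B, with the largest share of counts in windows, had the lowest ratios, whereas in Δfkh2 the lowest were in C. The part of enrichment in these ratios was not tested.

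**Figure D5:**
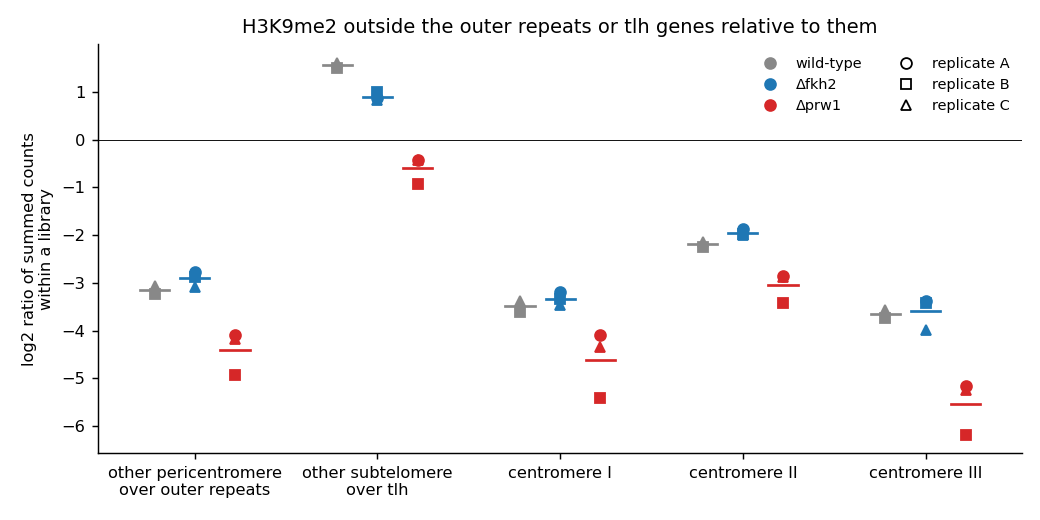
Log2 ratio, within each library, of summed H3K9me2 counts outside the outer repeats or tlh genes to those inside them (y axis), over all centromeres, at the subtelomeres with a tlh gene and at each centromere alone (x axis). Symbols are libraries of wild-type (grey), Δfkh2 (blue) and Δprw1 (red), and bars are means. The 3 Δprw1 libraries lie below the 3 Δfkh2 libraries in every column.

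At MAT the called windows lay in parts of the locus. The median window of the mating type contig held 1547, 3941 and 1006 normalized counts in Δfkh2 and 797, 2333 and 1488 in Δprw1, and that of chromosome II between rpp202 and emc3 held 543, 1723 and 422 against 241, 864 and 368. The mutants overlapped in both, and the summed level differed by -0.29 (exact permutation p = 0.6), a direction that turned without Δprw1 A (0.13), without Δfkh2 B (0.24) and under TMM on windows (0.03). Along the contig, 1 of 16 windows was called in the first 5 kb, 0 of 17 in the second, 0 of 16 in the third and 5 of 16 in the last, where the median log2 fold change was -1.19. On chromosome II 6 of 25 windows were called. The strongest was chrII:2134201-2134500 near mat3-Mc, the silent copy of the M mating type gene. Its counts were 121, 691 and 178 in Δfkh2 and 29.8, 34.2 and 35.3 in Δprw1, with no overlap and with 2271 and 1755 in wild-type. Each Δprw1 library was below the background of 105 there. The log2 fold change was -3.32 (standard error 0.46, edgeR adjusted p = 2.35e-10), and -2.20 without both B libraries. The contig and chromosome II can share sequence here. The contig window 17701-18000, with 599, 1722 and 428 counts in Δfkh2 and 108, 224 and 108 in Δprw1, had almost the same values as chrII:2134801-2135100, with 607, 1723 and 422 against 102, 196 and 117. The contig window 17101-17400 held 127, 589 and 156 against 36.3, 47.8 and 44.6, near the values of chrII:2134201-2134500. Calls on the contig and on chromosome II are therefore not all separate measurements.

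The islands sit on meiotic genes that vegetative cells silence, and they showed little H3K9me2 in either mutant. The level summed over 25 windows was 11.47 ± 0.02 in Δprw1 and 12.18 ± 0.50 in Δfkh2 (SD, n = 3 each), a difference of -0.70 without overlap (exact permutation p = 0.1, the smallest possible) and of -0.44 without both B libraries. Under TMM on windows it was -0.39 and the libraries overlapped (exact permutation p = 0.6). All 25 windows were under 2 times the background in each Δprw1 library, against 19, 12 and 24 in Δfkh2. At mei4, which encodes a forkhead transcription factor of meiosis, the mean window held 273, 454 and 187 normalized counts in Δfkh2 and 124, 134 and 126 in Δprw1. Its strongest window, chrII:1474201-1474500, had 419, 800 and 256 counts against 123, 133 and 110, and 2937 and 1862 in wild-type. It was the only called one of 6 (log2 fold change -2.01, standard error 0.51, edgeR adjusted p = 0.000515), and the call was lost without Δprw1 A (adjusted p = 0.00893) or Δprw1 C (0.0121). At ssm4, a microtubule-binding protein gene of meiosis, the mean window held 164, 239 and 122 counts in Δfkh2 and 113, 105 and 112 in Δprw1, and 0 of 7 windows were called. At mcp7, a gene of meiotic recombination, it held 148, 233 and 115 against 95.2, 91.9 and 102, and 0 of 6 were called. Of 16 meiotic gene names looked up, 14 were annotated and 6 had a filtered window, and mei4 alone had a called one. The others were mug8, mug9 and num1, with median log2 fold changes of -0.06, 0.03 and -0.49.

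Over the convergent genes vps29 and moa1 on chromosome I, Δprw1 was low and Δfkh2 was near the wild-type level. vps29 encodes a subunit of the retromer, which sorts endosomal cargo, and moa1 encodes the meikin that orients sister kinetochores together in meiosis I. The genes were reached through the strongest called window of the zone elsewhere, chrI:3728101-3728400, and named after their values were seen. In that window counts were 688, 1495 and 329 in Δfkh2, compared with 121, 157 and 147 in Δprw1. Wild-type had 853 and 546. Δfkh2 straddled the wild-type level, whereas each Δprw1 library was within 2 times the background. The log2 fold change was -2.56 (standard error 0.41, edgeR adjusted p = 3.26e-08), and -1.92 without both B libraries. The adjoining window chrI:3727801-3728100, in the vps29 coding sequence, held 708, 1624 and 427 counts in Δfkh2 and 132, 183 and 164 in Δprw1, against 665 and 410 in wild-type (-2.53). All 4 windows over vps29 and both windows over moa1 were called, 1 of them over both genes. The next one out, chrI:3728701-3729000 in moa1, held 273, 602 and 202 counts in Δfkh2 and 119, 128 and 143 in Δprw1 (-1.46).

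Few other windows outside the large domains were called. Of the 8 in the zone elsewhere, 5 lay at vps29 and moa1. The count in this zone was 5 without Δprw1 A or Δprw1 C, 3 without Δfkh2 B, without both B libraries or under TMM on windows, and 4 with only the mutant libraries in the fit. Another lay at prm1 near centromere I, with 125, 390 and 98.2 counts in Δfkh2 and 93.5, 113 and 79.9 in Δprw1, which overlapped (log2 fold change -1.11). The remaining 2 lay beside MAT, at SPBC23G7.14 and at rpp202, which encodes a ribosomal P2 protein. These genes, too, were named after their values were seen. The rpp202 window held 264, 538 and 249 counts in Δfkh2 and 130, 137 and 133 in Δprw1 (-1.40). The Tf2 retrotransposons, 13 elements with 127 windows, showed no called window and 0 at an unadjusted p below 0.05. Their mean window held 153, 190 and 211 counts in Δfkh2 and 185, 298 and 152 in Δprw1, with 179 and 162 in wild-type, and reads of the copies are shared.

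The ends of chromosome III, which flank the ribosomal DNA arrays, varied between replicates more than between the mutants. Their median window held 3083, 2286 and 5475 counts in Δfkh2 and 4111, 11571 and 2677 in Δprw1, and the summed level differed by 0.62 with overlap (exact permutation p = 0.6). The median log2 fold change was 0.78 on each end. The single called window, chrIII:24901-25200, held 227, 215 and 421 counts in Δfkh2 and 127, 203 and 91.7 in Δprw1, with wild-type below the background at 63.3 and 56.6. Its log2 fold change was -1.06 (standard error 0.29, edgeR adjusted p = 0.00177), and it lost the call under DESeq2 (adjusted p = 0.0175), under TMM on windows (0.0436), and without Δprw1 A (0.0299), Δprw1 C (0.0655) or Δfkh2 C (0.0961).

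Each mutant was also read against the same wild-type libraries, so the values that follow share their controls and are given side by side only. By the same rule 725 windows (48.3%) were lower than wild-type in Δprw1 and 540 (36.0%) in Δfkh2. In the other subtelomere it was 342 and 263 of 391 windows, with median log2 fold changes of -3.60 and -2.06, and in the other pericentromere 196 and 135 of 212, with medians of -2.60 and -1.45. In the outer repeats it was 12 in Δprw1 and 32 in Δfkh2 of 336, with medians of -1.07 and -1.98. Of the 304 windows lower in Δprw1 than in Δfkh2, 240 were also called lower than wild-type in both mutants, 63 in Δprw1 and not in Δfkh2, and 1 in neither.

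On the coarser 5 kb bins, edgeR's test called 0 of 2520 (0.0%) at the same thresholds. At an unadjusted p below 0.05, 370 bins were lower in Δprw1 and 209 higher, and DESeq2 called 25 lower and 0 higher. At an adjusted p below 0.05 and the same fold, 14 bins were lower, each of which held filtered windows. They lay at the ends of chromosomes I and II, at centromeres I and II and at vps29 and moa1. The bin chrI:10001-15000 held 17763, 46126 and 17092 normalized counts in Δfkh2 and 2628, 5521 and 3087 in Δprw1 (log2 fold change -2.85, edgeR adjusted p = 0.0298). Over the 2352 bins without a filtered window the median log2 fold change was 0.004.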

How the data were processed

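The authors deposited raw fragment counts per 300 bp window and per 5 kb bin for 13 ChIP libraries of 5 genotypes. Reads were trimmed with Trimmomatic (0.39) and aligned with Bowtie2 (2.4.2) to the 3 chromosomes and a mating type contig. Properly paired reads without duplicates (Picard 2.25.2) were counted with csaw. The fkh2, prw1, ade6, ura4 and mat1 loci, with 1.5 kb on each side, were set aside, so the deleted genes cannot check the labels, and windows above 1.7 times the background median were kept. The submitters' notes name ASM294v2. The bins over the genes set aside are depleted at their ASM294v3 positions. One wild-type and 1 clr6-1 ChIP library had been left out by the authors after clustering and inspection, and the inputs were not used here.

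Size factors were DESeq2 (1.42.0) medians of ratios on the 5 kb bins. Windows and bins were tested with edgeR (4.0.16) in R 4.3.3, in 1 model of all 13 libraries with a coefficient per genotype. Zones came from RefSeq ASM294v3 and from BLAST (2.17.0) blocks of at least 5000 bases shared between centromeres at 90% identity. The merging of blocks across gaps up to 1000 bases was set after the homology was seen. The rule for named genes took the loci listed in the text, the strongest called window of each zone and the 10 genes with the strongest called windows. Members and lists were chosen with earlier results of these data known. The replicates are described as biological, and p-values measure the spread between these libraries.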

Additional observations from a re-analysis of the deposited data

How the results depend on the processing

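The count of 304 windows lower in Δprw1 than in Δfkh2 was 464 with total-count scaling of the 5 kb bins and 155 with only the 6 mutant libraries, and 122 to 401 with each replicate left out. Higher windows numbered 189 under TMM on windows and 0 to 1 with each replicate left out. That scaling raised the median log2 fold change of all windows by 0.37, and total counts lowered it by 0.15. An adjusted p below 0.05 gave 408 lower and 0 higher. The MAT level became 0.03 under TMM on windows and ran from -0.76 to 0.24 with each replicate left out. Leaving each replicate out gave 0.03 to 1.12 at the outer repeats, -1.20 to -0.36 at the other pericentromere, 0.01 to 0.99 at tlh, -1.41 to -0.63 at the other subtelomere and -0.93 to -0.44 at the islands. The pericentromere and subtelomere ratios ran from -1.64 to -1.23 and from -1.58 to -1.32, and were -1.79 and -1.71 without windows near a border. The 5 kb bins called rose from 0 to 25 with DESeq2, which used a mean dispersion fit there, and 0 to 3 with each replicate left out. The windows at SPAC212.07C, chrII:1601701-1602000, chrII:2134201-2134500 and vps29 kept their call under every alternative. The cause of these changes was not tested. Same-letter correlations across windows of the deviations from the mutant mean were 0.408, -0.013 and -0.724 for A, B and C. Such correlations do not register a shift common to a whole library, and B stood apart in both mutants. They therefore cannot decide whether replicate letters pair the samples. The replicate block gave 334 lower windows with all libraries, 267 with 6, and 372 with DESeq2, the last chosen after seeing the data. With the block, the 5 kb bins called stayed at 0 and the ratios at -1.49 (exact sign-flip p = 0.25).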
